A study of Gallus gallus with 10 samples.

Results

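The trunk region of chicken embryos that had been electroporated with an Otx2 vector (OT1, OT2) was compared with the corresponding region of control embryos (CT1, CT2) across all genes. The contrast was between the read counts of these 4 libraries of the 10 in the series. It was fitted jointly with the midbrain-hindbrain libraries, so 8 libraries shared the filter on low counts, the normalization and the estimate of the spread. Of the 25443 genes in the table, 16611 passed this filter and were tested. The other 6 libraries came from the midbrain-hindbrain region with and without exogenous Otx2 (OH1, OH2 and CH1, CH2) and from the posterior area opaca with and without it (OA and CA). OT embryos, of wild-type genotype, received pCAGGS-mOTX2 together with pCAGGS-EGFP at stages 4 to 5. The first vector drives mouse Otx2 cDNA from the broadly active CAGGS promoter. Tissue of all groups, CT among them, was taken at stages 10 to 11. OH and OA had the same treatment as OT, whereas CH and CA were labelled as electroporated with pCAGGS-EGFP alone. The control trunk library called CT1 here carries the library name NewCT1, whereas the other is named CT2. For the control trunk the labels conflict: CT1 is titled as not electroporated while its treatment entry names pCAGGS-EGFP, and CT2, titled only as lacking exogenous OTX2, is entered as not electroporated. Each library was a pool of the tissue of 4 embryos, so the duplicates measure the spread between pools, and the electroporated cells were not separated from the others.

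The control trunk region was the sinus rhomboidalis, the open posterior end of the neural plate, where progenitors of the spinal cord and of the paraxial mesoderm are kept by Wnt and FGF signals while the axis grows. Otx2 is a homeodomain transcription factor of the anterior epiblast, forebrain and midbrain, and later of the retina and pineal organ, and is absent from the normal trunk. Retinoic acid made by the somites opposes FGF at the front of the sinus, and HOX genes, which Otx2-expressing head tissue lacks, mark position along the trunk.

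The 4 trunk libraries held between 28606038 and 38951371 reads on genes. HOX transcripts summed over the 28 tested genes reached 538 TPM in OT1 and 340 TPM in OT2, against 3091 TPM in CT1 and 2306 TPM in CT2, while CH1 and CH2 had 84.3 and 132 TPM, so the control libraries carried the marks of trunk tissue. EGFP was present at 5904 and 9062 TPM in OT1 and OT2, against 1.12 and 15328 TPM in CT1 and CT2. CT1 therefore had nearly no EGFP transcript, as its title says, and its treatment entry and that of CT2 go against the reads. The electroporated reporter was thus found in both OT libraries and in 1 of the 2 controls. The pools also differed in W-linked transcripts, which summed over 93 tested genes to 838 and 757 TPM in OT1 and OT2, against 2145 and 2258 TPM in CT1 and CT2. None of these W-linked genes was called, and the 778 tested genes of the Z chromosome had a median log2 fold change of 0.33. For sex-linked genes, the sex of the pooled embryos and the exogenous Otx2 cannot be told apart.

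Mouse Otx2, counted apart from the chicken gene because its sequence had been added to the reference, reached 334 and 529 TPM in OT1 and OT2, and no read of it was counted in CT1 or CT2. Set against a limit of 3 reads per library, an assumed ceiling for a count of 0, it was at least 2163-fold higher in OT. The endogenous chicken OTX2 gene (chromosome 5, 55429563 to 55436665 of GRCg7w) was also higher, at 4.46 and 5.37 TPM in OT, against 0.0647 and 0.337 TPM in CT (log2 fold change 4.24, standard error 0.38, edgeR adjusted p = 0.00492). This level remained far below the 87.8 and 91.8 TPM of OH1 and OH2 and the 80.2 and 63.2 TPM of CH1 and CH2. The area opaca library OA, with 139 TPM of mouse Otx2, had 0.0846 TPM of chicken OTX2, and CA had 0.889 TPM.

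Of the 16611 genes tested, 712 (4.29%) were called higher and 406 (2.44%) lower in OT than in CT at an adjusted p under 0.05 by edgeR's quasi-likelihood test, in all 6.73% of the genes. An unadjusted p under 0.05 was reached by 4460 genes (26.8%). The OT and CT libraries did not overlap for any of the 1118 called genes, but this alone marks little, because they did not overlap for 55.5% of all genes tested. The called increases were larger than the called decreases: 376 of the gained genes, against 75 of the lost genes, changed at least 4-fold. However, 304 of the gained genes, against 7 of the lost genes, had a CT mean under 1 TPM. Of the gained genes 70 had no read in CT, and their fold change depends on a prior count. The count rested strongly on the controls, since 53 genes were called without CT1 and 567 without CT2. It fell to 293 and 290 genes without OH1 or OH2, which enter the shared estimate of the spread, the normalization and the filter on low counts, and to 135 with the 4 trunk libraries alone, while DESeq2 called 2755 genes including all 1118. Of the called genes, 63.7% were higher in OT; limma on log2(TPM + 1) gave 52.4%.

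**Figure D1:**
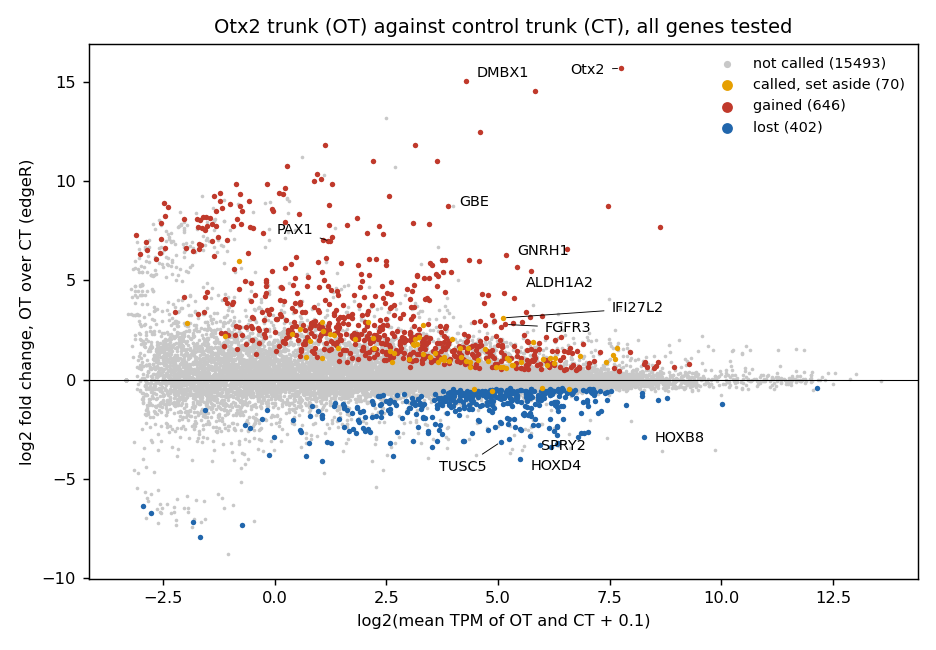
Change in the Otx2 trunk (OT) relative to the control trunk (CT) for each gene tested (vertical axis, log2 fold change by edgeR) against its mean level (horizontal axis, log2 of mean TPM + 0.1). Red points are the 646 gained and blue points the 402 lost genes; orange points are the 70 called genes set aside because area opaca tissue could account for at least 50% of the difference. Mouse Otx2 and DMBX1 stand at the top, at 15.70 and 15.07, and most called decreases are smaller than most called increases.

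The OT libraries held transcripts typical of the area opaca, the extraembryonic ring that surrounds the embryo and whose endoderm takes up yolk. The region taken from Otx2 embryos was chosen by position. Marker genes were the 80 with at least 20 TPM in both CA and OA and more than 5 times lower in CT1 and CT2; OT was not used to choose them. On a scale on which the CT mean is 0% and the mean of CA and OA is 100%, the median marker stood at 38.1% in OT1 (quartiles 25.3% and 49.2%) and at 9.91% in OT2 (quartiles 5.84% and 13.5%), with CT1 at -3.28% and CT2 at 3.28%. Thus OT1 carried more of this signal than OT2, and 74 of the 80 genes were higher in OT1. The CT values near 0% follow from the scale and from the choice of markers low in CT. How far this choice raised the OT values was not tested. A list of 45 tested yolk sac transport and plasma protein genes, which carry lipids, vitamins and iron from yolk to embryo, summed to 23369 TPM in OT1 and 14320 TPM in OT2, against 3866 TPM in CT1 and 10254 TPM in CT2, while OA and CA had 72183 and 53766 TPM. Of the 80 markers 7, and of the 45 listed genes 3 (6.67%), were called higher, beside 4.29% of all genes tested.

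**Figure D2:**
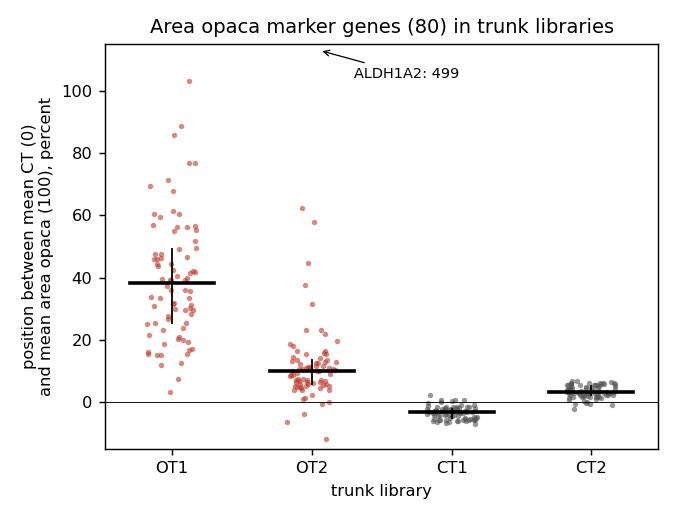
Level of each of the 80 area opaca marker genes in the 4 trunk libraries, on a scale where 0% is the CT mean and 100% the mean of the area opaca libraries CA and OA. Points are genes, thick lines are medians (38.1% in OT1, 9.91% in OT2, -3.28% in CT1 and 3.28% in CT2) and thin lines run between the quartiles; ALDH1A2, at 499% in OT2, lies beyond the axis.

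A called gene was set aside where mixing CT with area opaca tissue in these proportions (24.0% on average) would give at least 50% of the observed difference in TPM. For an increase the higher of CA and OA stood for this tissue, and for a decrease the lower. OA itself carried exogenous Otx2, so a gene higher in OA than in CA could be set aside on OA alone. This rule removed 66 of the increases and 4 of the decreases and left 646 gained genes (3.89% of those tested) and 402 lost genes (2.42%). With CA alone as area opaca tissue 701 gained and 406 lost genes were left, and with OA alone 650 and 404. The threshold fell between PDZD2 at 49.7% and PDE4D at 50.03%. The 5 largest increases set aside, among named genes of at least 5 TPM in OT, were IFI27L2, a gene induced by interferon, SH3TC1, LAPTM4B, a protein of lysosomal membranes, MAF, a bZIP transcription factor, and KIF12, a kinesin. IFI27L2 had 73.6 and 49.3 TPM in OT, against 5.39 and 9.17 TPM in CT, and 93.7 TPM in OA and 144 TPM in CA, so both area opaca libraries exceeded every trunk library. LAPTM4B had 19 and 11 TPM in OT, against 2.41 and 4.56 TPM in CT. The mixture gave as much as the whole of this difference, but from OA, at 53.2 TPM, against 14.4 TPM in CA. The 3 called yolk sac genes were all set aside: LGMN, a lysosomal protease, at 371 and 219 TPM in OT against 93 and 124 TPM in CT, VTN, the plasma adhesion protein vitronectin, and TTPA, which carries vitamin E. A stricter rule, setting aside every called gene that both area opaca libraries express at 2-fold or more of the CT mean, left 422 gained. For lost genes, the matching rule (both area opaca libraries at 2-fold or more below CT) left 112. A share fixed at 0.5 in both OT libraries left 33 lost genes. At that share the rule sets aside every loss whose OT mean lay at or above the lower area opaca value, whatever its size. A gene absent from the area opaca would be lowered by 0.69 on the log2 scale in OT1 and by 0.15 in OT2 by dilution at the marker-based shares. The part of dilution in small decreases was not tested.

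The 12 largest gains among named genes of at least 5 TPM in OT, outside the photoreceptor, heart and sinus rhomboidalis lists, were mouse Otx2 itself, DMBX1, HSPB7L, GBE, SYNPO2L, GNRH1, SMPX, MYOM2, SLN, PNPLA1, SSTR5 and C21orf58. DMBX1 (chromosome 8, 21356801 to 21379678 of GRCg7w), a homeobox gene of the midbrain, had 21.6 and 55.9 TPM in OT1 and OT2, and 0 reads in CT1 and CT2, which makes it at least 1405-fold higher than the 3-read limit (log2 fold change 15.07, standard error 0.95, adjusted p = 0.0042 by edgeR). As for every gene without a read in CT, the fitted fold change depends on a prior count and is no bound. DMBX1 was also at 15.9 TPM in OA and without a read in CA, and at 55.8 and 59.7 TPM in OH1 and OH2, against 20.9 and 18.6 TPM in CH1 and CH2. The trunk with exogenous Otx2 thus held DMBX1 at or above its level in control midbrain-hindbrain tissue. GNRH1 (chromosome 22, 896228 to 899231), the precursor of gonadotropin-releasing hormone, had 28.5 and 114 TPM in OT, against 0.535 and 1.08 TPM in CT, with 22.9 TPM in OA and 0 in CA (adjusted p = 0.0167 by edgeR). GBE (chromosome 1, 49492819 to 49497681), globin E of the bird eye, had 11.7 and 46.6 TPM in OT, against 0 and 0.0822 TPM in CT, and 20.3 TPM in OA against 0.169 TPM in CA. For GNRH1 and GBE the value of OT2 was about 4 times that of OT1, and both libraries lay well above CT.

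Of the other large gains, PNPLA1, which makes the acylceramides of skin, had 23.1 and 29.5 TPM in OT, against 0 and 0.758 TPM in CT (adjusted p = 0.032 by edgeR). In the other tissues PNPLA1 reached 1.82 and 5.21 TPM in OH, against 0.122 and 0.185 TPM in CH. SSTR5, a receptor for somatostatin, had 2.36 and 8.29 TPM in OT, against 0.174 and 0 TPM in CT. C21orf58 had 17.8 and 27.1 TPM in OT, against 0.404 and 0.188 TPM in CT, and 10.9 TPM in OA against 0.898 TPM in CA. Of the 12, SSTR5 kept its call under 7 of the 17 alternative settings, C21orf58 under 16 and DMBX1 under 17.

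HSPB7L, SYNPO2L, SMPX, MYOM2 and SLN are genes of striated muscle that lay outside the list of heart genes. HSPB7L, related to a small heat shock protein of heart and muscle, had 24.5 and 25 TPM in OT and 0 reads in CT, at least 82.6-fold above the 3-read limit (log2 fold change 11.00, standard error 1.59, adjusted p = 0.02 by edgeR). HSPB7L also differed between the brain pools, and was at 43.2 and 62.2 TPM in OH1 and OH2 and at 7.77 and 50.8 TPM in CH1 and CH2. SMPX and MYOM2, both of the sarcomere and its attachment, and SYNPO2L, an actin-binding protein of the Z disc, likewise had CH2 well above CH1 and at most 1 TPM in OA and CA. SLN, the calcium pump regulator sarcolipin, differed from these: it had 17.8 and 37.4 TPM in OT against 0 and 0.553 TPM in CT, but also 14.3 TPM in OA against 2.25 TPM in CA. TNNC2, the fast skeletal form of troponin C, was outside the naming rule's first 12 and is given because it had among the smallest p-values, with 52.6 and 42.9 TPM in OT, against 2.97 and 3.55 TPM in CT (log2 fold change 3.88, standard error 0.22, adjusted p = 0.00252 by edgeR). Of 31 tested muscle genes outside the lists, a family drawn up after these values were seen, 8 were gained and 0 lost, beside 3.89% and 2.42% of all genes tested; the choice of the family makes this a description. The heart list itself summed to 4011 and 4154 TPM in OT1 and OT2, against 1219 and 1444 TPM in CT1 and CT2. In bulk tissue, more cells of a type and more RNA per cell cannot be told apart, which holds for each gene group below.

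**Figure D3:**
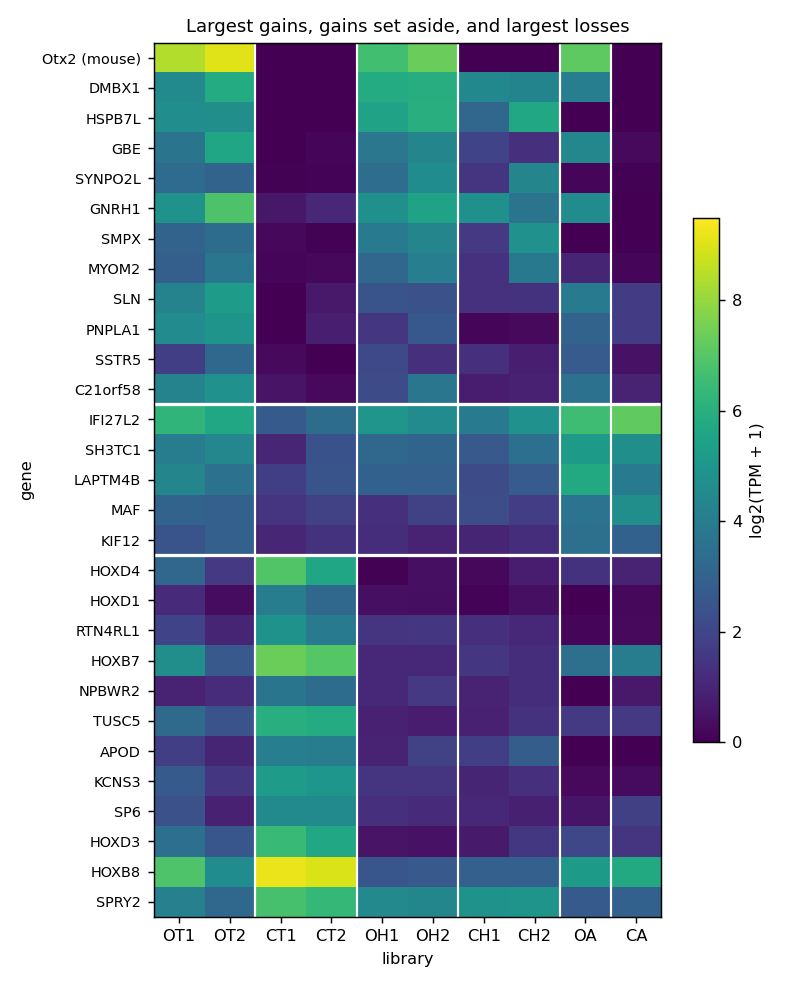
Levels in all 10 libraries, as log2(TPM + 1), of the 12 largest gains (top), the 5 largest increases set aside for area opaca tissue (middle) and the 12 largest losses (bottom). The gains are near 0 in CT1 and CT2, the genes set aside are high in OA and CA, and the losses are highest in CT1 and CT2, with HOXB7, HOXB8 and SPRY2 also seen in other tissues.

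The 12 largest losses, by the same rule applied to CT, were HOXD4, HOXD1, RTN4RL1, HOXB7, NPBWR2, TUSC5, APOD, KCNS3, SP6, HOXD3, HOXB8 and SPRY2. RTN4RL1, a member of the Nogo receptor family on axons, had 2.8 and 0.957 TPM in OT, against 27.6 and 14.3 TPM in CT (log2 fold change -3.42, standard error 0.58, adjusted p = 0.0227 by edgeR). NPBWR2, a receptor for neuropeptides B and W, had 0.879 and 1.32 TPM in OT, against 12 and 9.35 TPM in CT. TUSC5, a membrane protein known from glucose transporter traffic in fat cells, had 8.69 and 4.36 TPM in OT, against 63.5 and 56.6 TPM in CT (log2 fold change -3.15, adjusted p = 0.0132 by edgeR). The lowest control value of each of these genes was at least 4 times the highest OT value, and in the midbrain-hindbrain libraries all 3 stayed below 2 TPM. KCNS3, a modulatory subunit of voltage-gated potassium channels, had 5.47 and 1.85 TPM in OT, against 35.7 and 30.7 TPM in CT. SP6, a zinc finger factor of ectodermal ridges, had 4.13 and 0.819 TPM in OT, against 22.2 and 22 TPM in CT. APOD, a lipid-binding lipocalin, had 2.37 and 0.977 TPM in OT, against 15.7 and 14.8 TPM in CT, and kept its call under 5 of the 17 alternatives. Apart from NPBWR2, each of the 12 was lower in OT2, the library with less area opaca signal, than in OT1.

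Further programs were read from 36 gene lists, which were chosen with earlier results of these data known; for each the members called are given beside 4.29% called higher and 2.44% called lower among all genes tested, whose median log2 fold change was 0.03. Without CT1 few members of any list stayed called, and without CT2 more did in most lists. The counts below therefore rest on the controls, and on CT1 more than on CT2. They rest on OH1 and OH2 too, which enter the shared estimate of the spread. Leaving out either of these lowered most list counts, in many lists to as few members as without CT2, or fewer. DESeq2 called at least as many members as edgeR in every list and direction.

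**Figure D4:**
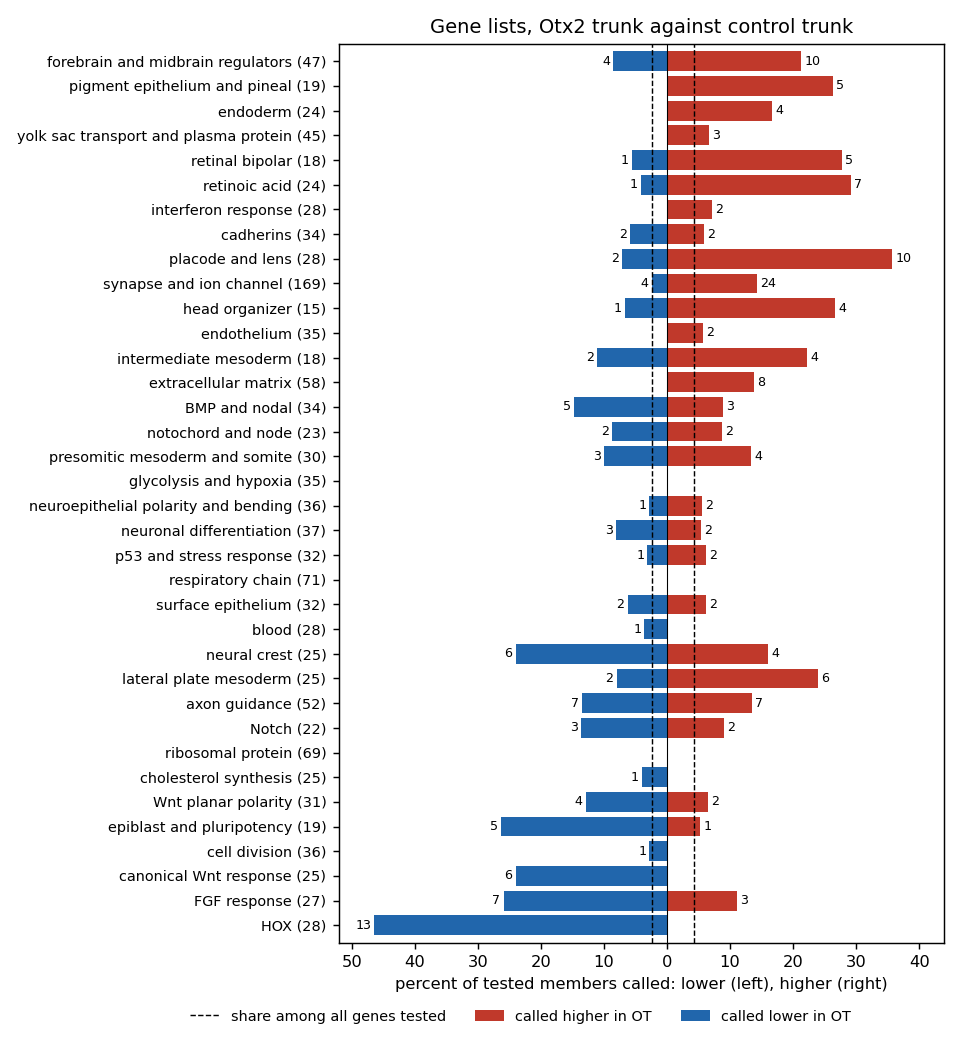
Percentage of the tested members of each gene list called lower (blue, left) and higher (red, right) in the Otx2 trunk than in the control trunk, with the number of tested members in parentheses and the number called at the bar ends. Dashed lines mark the 2.44% and 4.29% of all genes tested; lists are ordered by median log2 fold change, from forebrain and midbrain regulators (1.74) at the top to HOX genes (-2.94) at the bottom.

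HOX genes, which give trunk cells their position, fell together. Of 28 tested, 13 (46.4%) were called lower and 0 higher, and the log2 fold change was below 0 in all 28, with a median of -2.94. HOXD4 (chromosome 7, 15816673 to 15818266 of GRCg7w) had 7.87 and 1.96 TPM in OT1 and OT2, against 121 and 48 TPM in CT1 and CT2 (log2 fold change -4.03, standard error 0.82, adjusted p = 0.037 by edgeR). Its locus lies within that of HOXD3 (chromosome 7, 15800888 to 15828802), which had 10.1 and 4.84 TPM in OT, against 86.4 and 50.7 TPM in CT, so that reads of the pair may be shared. HOXB8 was the most abundant of those named, at 117 and 23.4 TPM in OT, against 592 and 498 TPM in CT. HOXB7 had 24.7 and 5.21 TPM in OT, against 165 and 127 TPM in CT, and HOXD1 had 1.27 and 0.252 TPM in OT, against 15.1 and 8.13 TPM in CT. Both OT libraries lay below both controls for each of these 5 genes, and 20 of the 28 HOX genes were lower in OT2 than in OT1. CT1 exceeded CT2 in 27 of the 28. The size of the change varied within the clusters: HOXB4 and HOXB3 had log2 fold changes of -1.16 and -1.63 (both called), and HOXB2, HOXA2 and HOXB5, at -0.86, -0.71 and -0.43, did not pass the test. The posterior genes HOXA10 and HOXC10 had the lowest fitted values, -4.56 and -4.71, and did not pass it either (adjusted p = 0.108 and 0.181 by edgeR). The number called was 0 without CT1, 4 without CT2 and 18 by DESeq2.

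Feedback inhibitors of FGF signalling fell, while 3 genes of the FGF receptor family rose. Of 27 tested, 7 (25.9%) were called lower and 3 (11.1%) higher, and the median log2 fold change was -0.83. SPRY2, a feedback inhibitor of receptor tyrosine kinases, had 16.6 and 8.29 TPM in OT, against 105.8 and 79.9 TPM in CT (log2 fold change -2.85, standard error 0.35, adjusted p = 0.0125 by edgeR). IL17RD, also called Sef, another such inhibitor, had 27.8 and 14.3 TPM in OT, against 134 and 108 TPM in CT. SPRY1 had 11.5 and 6.17 TPM in OT, against 45.5 and 31.1 TPM in CT, and the MAP kinase phosphatase DUSP4 and the ETS factor ETV5 fell by 0.96 and 0.95 on the log2 scale. The receptors moved the other way: FGFR3 (chromosome 4, 82896459 to 82948926 of GRCg7w) had 47.5 and 76.2 TPM in OT, against 5.75 and 12.3 TPM in CT (log2 fold change 2.78, adjusted p = 0.0132 by edgeR), and FGFRL1 and FGFR4 were gained as well. FGFR3 was also high in OA and CA, at 69.7 and 50.4 TPM, and the area opaca mixture gave 27.6% of its difference. Without CT1, 0 genes of this list were called lower and 1 was called higher.

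Among canonical Wnt responders the called changes were all decreases. Of 25 tested, 6 (24.0%) were called lower, and the median was -0.54. LEF1 and TCF7 encode DNA-binding partners of beta-catenin. LEF1 had 35.1 and 34.5 TPM in OT, against 155 and 127 TPM in CT (log2 fold change -1.98, standard error 0.14, adjusted p = 0.00352 by edgeR), and kept its call under 17 of 17 alternatives. TCF7 had 4.2 and 4.03 TPM in OT, against 21.8 and 18 TPM in CT, and also kept it under 17 of 17. The Wnt inhibitor APCDD1 had 25.2 and 10.5 TPM in OT, against 89.9 and 94.5 TPM in CT, and SP8, WIF1 and NKD1 were called lower too. The members AXIN1 and SP5 changed by 0.08 and -0.47 and were not called, so the list did not move as one. LEF1 and TCF7 alone remained called without CT1.

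In the list of Wnt planar polarity genes, whose pathway aligns cells as the axis narrows and lengthens, 4 of 31 (12.9%) were called lower and 2 (6.45%) higher. WNT5A, a ligand of this pathway in the tail bud, had 43.2 and 20.6 TPM in OT, against 242 and 181 TPM in CT (log2 fold change -2.68, standard error 0.43, adjusted p = 0.0198 by edgeR). Its receptor ROR2 had 18.1 and 18.5 TPM in OT, against 33.4 and 30.9 TPM in CT, and PRICKLE1, a core polarity protein, had 47.7 and 42.8 TPM in OT, against 107 and 114 TPM in CT. DVL2, which relays Wnt signals inside the cell, fell by 0.72. The ligand WNT4 rose instead, at 9.54 and 27.4 TPM in OT, against 2.56 and 2.9 TPM in CT, as did the receptor FZD7. Without CT1 none of these was called (0 in each direction), and without CT2 there were 2 lower.

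Genes of Notch signalling and of the presomitic mesoderm, in which Notch oscillations set the somites, changed in both directions. DLL1, a Notch ligand of presomitic mesoderm, had 18.9 and 6.64 TPM in OT, against 85.9 and 70.9 TPM in CT (log2 fold change -2.55, standard error 0.45, adjusted p = 0.0266 by edgeR). NRARP, a Notch target that limits the signal, and the ligand JAG2 were also lower, while the ligand JAG1 had 18.2 and 26.5 TPM in OT, against 10.6 and 9.42 TPM in CT, and rose. In all, 3 of 22 Notch genes were called lower and 2 higher. Of 30 presomitic and somite genes, 3 were called lower, the protocadherin PCDH8 and the receptor EPHA4 among them, and 4 higher. PAX1 (chromosome 3, 3592601 to 3597403 of GRCg7w), a factor of the sclerotome and of the pharyngeal pouches, had 4.13 and 4.88 TPM in OT, against 0.0747 and 0 TPM in CT (log2 fold change 6.98, standard error 0.64, adjusted p = 0.00527 by edgeR). FST, the activin antagonist follistatin, had 8.26 and 45.4 TPM in OT, against 0.805 and 1.65 TPM in CT, so OT2 was more than 5 times higher than OT1. NKX3-2 and TBX18, of sclerotome and somite polarity, were gained at lower levels. Without CT1, 1 of these 7 somite genes remained called.

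Some BMP targets and genes of undifferentiated cells were also lower. MSX2, a homeobox target of BMP, had 30.4 and 21.1 TPM in OT, against 144 and 123 TPM in CT (log2 fold change -2.33, standard error 0.23, adjusted p = 0.0055 by edgeR), and kept its call under 17 of 17 alternatives. MSX1 and the BMP ligand GDF6 were lower as well, and in the BMP and nodal list 5 of 34 (14.7%) were called lower and 3 (8.82%) higher. Those higher were CFC1, a nodal co-receptor, the ligand BMP6 and ID2, a BMP target. CFC1 lies on the Z chromosome. The area opaca mixture gave 31.3% of the difference of CFC1 and 39% of that of ID2. Of the 17 alternatives, CFC1 and BMP6 each kept their call under 6 and ID2 under 3. In the list of epiblast and pluripotency genes, 5 of 19 (26.3%) were called lower and 1 higher. TRIM71, an RNA-binding regulator of early cells, had 51.1 and 36.8 TPM in OT, against 128 and 103 TPM in CT, and LIN28A, which blocks the let-7 microRNAs, had 232 and 369 TPM in OT, against 624 and 532 TPM in CT. SALL1 had 82.6 and 101 TPM in OT, against 199 and 197 TPM in CT, and SALL4 was lower too. The gene called higher, PRDM14, stayed at 1.31 and 1.68 TPM in OT, against 0 and 0.0735 TPM in CT. Without CT1, 1 gene of the BMP list and 0 of the epiblast list were called lower.

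Genes of retinoic acid supply were among those that rose. Of 24 tested, 7 (29.2%) were called higher and 1 lower, and the median log2 fold change was 1.27. ALDH1A2 (chromosome 10, 6999857 to 7055362 of GRCg7w), the main enzyme of retinoic acid synthesis in the trunk, had 29.1 and 124 TPM in OT, against 3.52 and 5.3 TPM in CT (log2 fold change 4.13, standard error 0.79, adjusted p = 0.0319 by edgeR). It had 29.5 TPM in OA and 27.3 TPM in CA, so that OT2 exceeded even the area opaca. ALDH1A1, a sister enzyme, had the opposite order of the pools, with 85.3 and 9.91 TPM in OT1 and OT2, against 1.28 and 2.99 TPM in CT; it lies on the Z chromosome and kept its call under 5 of 17 alternatives. RDH10, which makes the retinaldehyde substrate, had 33.3 and 43 TPM in OT, against 9.14 and 10.9 TPM in CT. The retinol transporter gene STRA6 had 193 and 80.8 TPM in OT, against 28.8 and 35.2 TPM in CT. NR2F2, a nuclear receptor that responds to retinoic acid, had 14.9 and 46.5 TPM in OT, against 8.21 and 4.88 TPM in CT. CYP1B1 and CYP26C1 were also higher, the second being a retinoic acid degrading enzyme of the head. Its relative CYP26A1, which clears retinoic acid from the tail bud, was the gene called lower, at 8.79 and 12.5 TPM in OT, against 31 and 23.2 TPM in CT (log2 fold change -1.34, adjusted p = 0.0309 by edgeR). Without CT1 no gene of the list was called in either direction (0 and 0), and without CT2 there were 2 higher and 1 lower.

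Of 47 tested forebrain and midbrain regulators, 10 (21.3%) were called higher and 4 (8.51%) lower. The median log2 fold change was 1.74, against 0.31 by limma on log2(TPM + 1), where low genes count for less, and 0.54 without OT2. Besides DMBX1 and chicken OTX2, IRX1 had 8.58 and 20.8 TPM in OT, against 0.99 and 0.221 TPM in CT, and IRX5 had 2.89 and 5.94 TPM in OT, against 0.255 and 0.0622 TPM in CT. IRX3 was gained as well, and with IRX6 this made 4 of the 6 tested Iroquois genes, homeobox regulators of neural territories. This family was drawn up after the values were seen, and 3.89% of all genes tested were gained. EN1, a gene of the midbrain-hindbrain boundary, had 1.1 and 3.89 TPM in OT, against 0 and 0.101 TPM in CT (log2 fold change 5.10, standard error 0.87, adjusted p = 0.0234 by edgeR). These levels were low beside brain tissue, where EN1 had 34.4 and 32.4 TPM in OH and 25.2 and 23.9 TPM in CH. NKX2-2, POU3F4 and PAX5 were called higher on very few transcripts, with PAX5, a Z-linked gene, at 0.0953 and 0.0534 TPM in OT and 0 in both controls, at least 3.75-fold over the 3-read limit. Among those called lower were FOXB1, at 4.2 and 9.23 TPM in OT, against 24.6 and 19.3 TPM in CT, and PAX2, at 4.73 and 6.07 TPM in OT, against 14.4 and 11.8 TPM in CT. EN2, SIX3 and PAX6 changed by 0.01, 0.89 and 2.66 and did not pass the test. There were 4 called increases in this list without CT1 and 15 without OT1.

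Genes of pigment epithelium, pineal and retinal bipolar cells, other sites of Otx2 activity, were gained at low to moderate levels. In the pigment epithelium and pineal list 5 of 19 (26.3%) were called higher and 0 lower. AANAT, the penultimate enzyme of melatonin synthesis, had 9.65 and 13.5 TPM in OT, against 0 and 0.685 TPM in CT (log2 fold change 4.94, standard error 1.01, adjusted p = 0.0368 by edgeR), and TPH1, the tryptophan hydroxylase of the pineal, had 12.7 and 33.1 TPM in OT, against 5 and 3.91 TPM in CT. RPE65, the retinoid isomerase of the pigment epithelium, had 3.69 and 14.1 TPM in OT, against 0.37 and 0.331 TPM in CT. GPR143 rose to 0.581 and 2.87 TPM in OT, with no read in CT. In the bipolar list 5 of 18 (27.8%) were called higher and 1 lower, and VSX1, a homeobox gene of bipolar cells, had 5.92 and 8.16 TPM in OT, against 0.779 and 1.36 TPM in CT. SCGN, a calcium-binding protein, was the one called lower. Without CT1 neither list held a call (0 genes).

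Of 28 tested placode and lens genes, 10 (35.7%) were called higher and 2 (7.14%) lower. EYA2, a transcriptional coactivator of the placodes, had 12.9 and 16.4 TPM in OT, against 5.22 and 4.73 TPM in CT, and was gained, and EYA4 of the same family was lost, at 1.16 and 1.52 TPM in OT, against 4.76 and 4.4 TPM in CT. FOXI3, an early gene of the preplacodal region, had 14.4 and 5.65 TPM in OT, against 0.242 and 0.518 TPM in CT (log2 fold change 4.69, standard error 0.58, adjusted p = 0.0127 by edgeR). The lens crystallin gene CRYBB2 had 2.14 and 3.25 TPM in OT and no read in CT, but 3.7 and 2.11 TPM in OA and CA. MAF of this list was set aside, as given above, leaving 9 gained. DLX5, a homeobox gene of the ectodermal border, was lower, at 19 and 23.5 TPM in OT, against 89.1 and 55 TPM in CT. Without CT1, 3 of the list were called higher.

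Neural crest genes changed in both directions. FOXD3, which specifies the crest, and SOX10, of migrating crest, were gained, and some genes of the neural border were lost. FOXD3 had 0.729 and 7.9 TPM in OT1 and OT2, against 0 and 0.0477 TPM in CT (log2 fold change 6.97, standard error 1.38, adjusted p = 0.0339 by edgeR). SOX10 had 0.789 and 4.36 TPM in OT, against 0.0224 and 0.0195 TPM in CT. For both, OT2 was several times OT1, and TWIST1, a mesenchymal factor of the cranial crest, had the same order, with 3.14 and 11.5 TPM in OT, against 0.482 and 0.331 TPM in CT. In brain tissue SOX10 was at 24.5 and 27 TPM in OH and 29.9 and 32.4 TPM in CH. The border genes MSX1, MSX2 and TFAP2A, with MYCN, SNAI2 and PDGFRA, made up the 6 of 25 (24.0%) called lower, beside 4 (16.0%) higher. TFAP2A had 17.6 and 15.5 TPM in OT, against 41.5 and 32.7 TPM in CT. Of the 10, 1 remained called without CT1.

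Among 169 synapse and ion channel genes 24 (14.2%) were called higher and 4 (2.37%) lower, the lower share being near the background of 2.44%. Of the increases, GABRA6, a GABA-A receptor subunit, had 1.44 and 3.01 TPM in OT and no read in CT. KCNH7, a potassium channel, had 0.628 and 1.31 TPM in OT, and GRM8, a glutamate receptor, had 0.208 and 1.16 TPM in OT, both without a read in CT. Besides KCNS3, the synaptotagmin SYT10 and the sodium channel SCN8A were lower in OT, SYT10 at 0.347 and 0.26 TPM in OT, against 3.92 and 1.85 TPM in CT. In the axon guidance list 7 of 52 (13.5%) were called in each direction, with EPHA7 and SEMA3C higher and RGMA, EPHA4 and EPHA5 lower. Without CT1, 2 synapse genes and 0 guidance genes remained called.

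Of 58 extracellular matrix genes 8 (13.8%) were called higher, of which LAMA4 was set aside, and 0 lower. COL5A1, a fibrillar collagen, had 26 and 29.6 TPM in OT, against 8.48 and 9.72 TPM in CT (log2 fold change 1.65, standard error 0.15, adjusted p = 0.00528 by edgeR), and 25.1 TPM in OA against 8.91 TPM in CA. COL6A1 had 11 and 9.57 TPM in OT, against 1.71 and 2.8 TPM in CT. It was higher in OA and CA, at 15 and 14.5 TPM, and the area opaca mixture gave 38.2% of its difference. ELN, the elastic fibre protein elastin, had 7.09 and 32.4 TPM in OT1 and OT2, against 1.11 and 1.15 TPM in CT, again with OT2 above OT1. Without CT1 none of these was called (0 of 58), and 6 were without CT2.

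The lateral plate list had 6 of 25 (24.0%) called higher, among them TCF21, of splanchnic mesoderm, at 3.12 and 6.96 TPM in OT, against 0.547 and 0.591 TPM in CT, and 2 lower, FOXF1 and BMP4. BMP4 had 79.5 and 63.7 TPM in OT, against 156 and 126 TPM in CT. The intermediate mesoderm list had 4 of 18 (22.2%) higher and 2 (11.1%) lower, PAX2 and SALL1, with the kidney gene OSR2 at 29.7 and 26.6 TPM in OT, against 8.41 and 13.7 TPM in CT. OSR2 was higher still in OA and CA, at 44.8 and 43 TPM. Area opaca tissue gave 47.4% of its difference, just short of the rule for setting aside. Of 24 endoderm genes 4 (16.7%) were called higher, including FOXA2, at 33.5 and 32.9 TPM in OT, against 10.9 and 13.7 TPM in CT, and CDX1, at 47.3 and 30 TPM in OT, against 2.29 and 8.4 TPM in CT. CDX1 stood near the rule for setting aside, since area opaca tissue gave 44% of its difference, with 66.4 TPM in OA and 27.8 TPM in CA. In the head organizer list 4 of 15 (26.7%) were called higher and 1 (6.67%) lower. Those higher were FOXA2, SFRP1, DKK3 and GSC. SFRP1 had 38.4 and 65.6 TPM in OT, against 12.1 and 14.6 TPM in CT. DKK3 had 59.2 and 129 TPM in OT, against 25.3 and 28.1 TPM in CT. GSC, a homeobox gene of the organizer, was called on 0.362 and 1.14 TPM in OT and no read in CT. CHRD, the BMP antagonist chordin, was lost, at 34.5 and 21.7 TPM in OT, against 131 and 98.2 TPM in CT (log2 fold change -1.98, standard error 0.26, adjusted p = 0.0132 by edgeR). Without CT1 these 4 lists held 0 called genes.

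Other lists held fewer called genes. None of 71 respiratory chain, 69 ribosomal protein or 35 glycolysis and hypoxia genes was called by edgeR, with medians of 0.19, 0.00 and 0.23; DESeq2 called 6 respiratory chain genes higher, 3 glycolysis genes higher and 2 lower. Among 36 cell division genes 1 was called lower, CCNE1, although 33 had a log2 fold change below 0, and DESeq2 called 9. Blood genes followed the pools and not the groups: they summed to 24441 TPM in OT1 and 4562 TPM in OT2, against 15805 TPM in CT1 and 10621 TPM in CT2, and 1 of 28, the progenitor factor MYB, was called lower. Of 35 endothelial genes 2 were called higher by edgeR, MMRN1 and PLVAP, and 11 by DESeq2, with a median of 0.57 and 30 above 0. Of 28 interferon response genes 2 were called higher by edgeR, IFI27L2 and the RNA sensor TLR3, and 10 by DESeq2, with a median of 0.90 and 24 above 0. This list summed to 451 and 239 TPM in OT1 and OT2, against 158 and 199 TPM in CT1 and CT2. In OA and CA it summed to 456 and 542 TPM. The part of area opaca tissue in these increases was not tested. Of 23 notochord and node genes 2 (8.70%) were called in each direction. Of 37 neuronal differentiation genes 2 were called higher and 3 (8.11%) lower, and of 32 surface epithelium genes 2 (6.25%) in each direction. By symbol, 16 of 293 solute carriers (5.46%) were gained and 7 (2.39%) lost, shares near the 3.89% and 2.42% of all genes tested. Of 91 ZNF zinc finger genes 1 (1.10%) was gained and 0 lost. These families were drawn up after the values were seen.

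In the other tissues with exogenous Otx2 the gained genes tended to be higher too, and the lost genes had medians near 0. These comparisons share no library with OT and CT, although OH, CH, OT and CT share the estimate of the spread. OA and CA were also used to set genes aside, so the gained and lost genes were not chosen apart from them. Tissues of the same treatment may also come from the same embryos. Between OH and CH, the median log2 fold change was 0.27 for the gained genes and 0.01 over all genes tested, and 112 of 646 (17.3%) had an unadjusted p under 0.05 with a higher level in OH, against 2.28% of all genes. Between OH and CH 6 genes were called (0.0361% of those tested), of which 4 were gained in the trunk, the mouse Otx2 transgene among them. Between OA and CA, with 1 library each and no test, 110 gained genes (17.0%) were at least 2-fold higher in OA on TPM + 1, against 3.4% of all genes tested. Lost genes had medians of -0.01 between OH and CH and -0.02 between OA and CA, and 4 (0.995%) were at least 2-fold higher and 13 (3.23%) at least 2-fold lower in OA, against 3.4% and 2.03% of all genes tested. Higher in OH at an unadjusted p under 0.05 and by 2-fold in both OH and OA were 50 genes, of which 40 were gained in OT; the mouse Otx2 transgene is 1 of them, and the others include GNB3, DMBX1, GBE, PNPLA1, AANAT and TPH1.

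**Figure D5:**
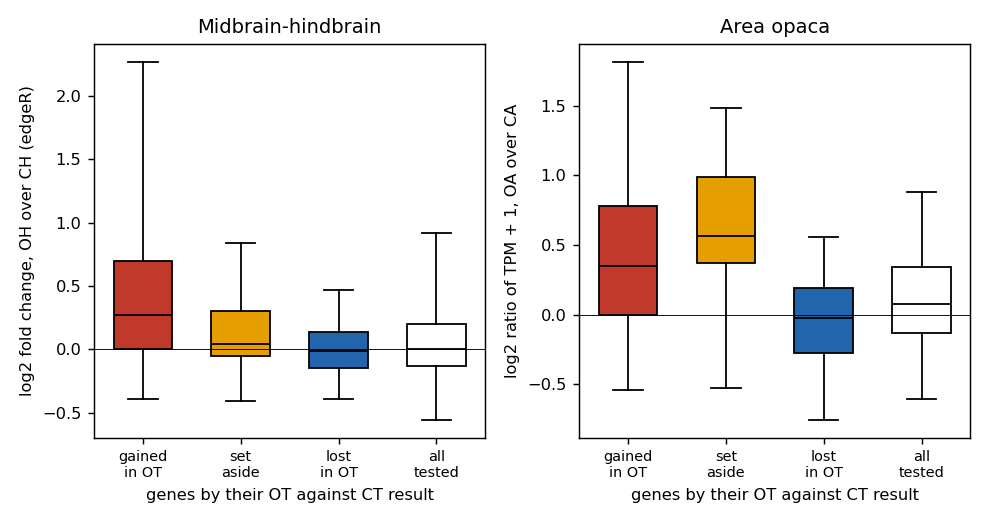
Difference between Otx2 and control tissue in the midbrain-hindbrain (left, OH over CH, log2 fold change by edgeR) and in the area opaca (right, OA over CA, log2 ratio of TPM + 1), for genes gained, set aside and lost in the trunk and for all genes tested. Boxes span the quartiles with the median, and whiskers the central 90% of genes; medians of gained genes are 0.27 and 0.35, of lost genes -0.01 and -0.02.

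The pools within each group differed in an ordered way. Among gained genes OT2 was above OT1 in 465 of 646 (72.0%), against 56.5% of all genes tested; OT2 also had more mouse Otx2. Among genes set aside it was above OT1 in 28 of 66. CT2, with EGFP, was mostly below CT1 among lost genes and above it among gained ones: among lost genes CT2 was above CT1 in 79 of 402 (19.7%), against 49.0% of all genes tested, and among gained genes in 421 (65.2%). CT2 was also above CT1 in 61 of the 66 increases set aside (92.4%) and in 75 of the 80 area opaca markers. The parts of electroporation and of area opaca tissue in this order were not tested.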

How the data were processed

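The authors mapped paired-end reads of poly(A) libraries to the chicken assembly GRCg7w with mouse Otx2 and EGFP added, quantified them with StringTie, and deposited tables per gene and per transcript with read counts, TPM and FPKM (the aligner and the StringTie version are not given in the sources used here). The deposited counts are raw whole numbers, and the deposited TPM values were normalized by the authors for gene length and library size. The 20 FPKM columns of the tables were not used, and the transcript table gave only gene starts and ends. Libraries had between 28606038 and 40806402 counts. Groups were taken from the labels. edgeR 4.0.16 in R 4.3.3 was fitted to counts of the 8 trunk and midbrain-hindbrain libraries (4 residual degrees of freedom) with TMM normalization, filterByExpr (8832 genes removed), quasi-likelihood tests of OT against CT and Benjamini-Hochberg adjustment at 0.05. P-values measure the spread between 2 pools per group. Standard errors given with edgeR were the absolute log2 fold change divided by the square root of the quasi-likelihood F statistic. For genes without a read in CT they therefore depend on the prior count too. OA and CA had 1 library each and were not tested. Alternatives were DESeq2 1.42.0, limma 3.58.1 on log2(TPM + 1) and log2(TPM + 0.1), other scaling, filters, blocks and leaving out each library; the fits were tested on simulated data. Figures and summaries used Python.

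Named genes were mouse Otx2, EGFP, chicken OTX2, the 12 largest increases and decreases not set aside (symbol assigned, not overlapping between groups, mean of 5 TPM or more on the higher side, outside the heart, photoreceptor and sinus rhomboidalis lists), the 5 largest increases set aside and up to 4 called members per list and direction; other genes named with values were chosen after their values were seen. The members and lists were chosen with earlier results of these data known. Starts and ends are those of the deposited table on GRCg7w, and chromosomes come from matching 23112 of 25443 identifiers to RefSeq's GRCg7b table. Promoter sequences were not analysed here. A few genes are not reported here.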

Additional observations from a re-analysis of the deposited data

Results flagged for a closer look

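The responses of trunk and midbrain-hindbrain tissue to exogenous Otx2 were compared by an interaction term (OT against CT, minus OH against CH) in the edgeR fit of 8 libraries, and 37 genes (0.223% of those tested) passed an adjusted p under 0.05. The named genes among them were as follows. DMBX1 differed by 13.56 on the log2 scale (adjusted p = 0.025 by edgeR), with a fitted value that depends on the prior count, since CT had no read; in brain tissue its difference was 1.52. OTX2 differed by 3.94 (adjusted p = 0.0368 by edgeR), being already high in CH. PAX1 differed by 6.52, with a brain difference of 0.46. The genes with a lower trunk response were CHRD at -2.88, TCF7 at -2.55, LEF1 at -1.96 and JAG2 at -1.15. For CHRD the brain difference was 0.90, with 50.4 and 55.4 TPM in OH1 and OH2, against 27 and 28.6 TPM in CH1 and CH2. No interaction was called with the replicate number as a block (0 genes), and DESeq2 called 788.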

How the results depend on the processing

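The limits of the comparison are 2 pools per group, a control group in which 1 pool carried EGFP, and area opaca transcripts in OT, whose share was estimated from markers; tissue carried over and expression of these genes in the trunk itself cannot be told apart. With DESeq2, 1717 genes were called higher and 1038 lower, of which 1417 were gained and 981 lost after setting area opaca genes aside. Testing against a 2-fold change left 100 higher and 21 lower (98 gained, 21 lost), and the 4 trunk libraries alone gave 93 and 42 (91 gained, 42 lost). limma on log2(TPM + 1) left 422 gained genes. Setting genes aside by direction only left 422 gained and 112 lost. A share of 0.5 in both OT libraries, at which the size of a loss no longer counts, left 33 lost. Leaving out 1 library at a time gave between 38 and 689 higher, 15 and 350 lower, 37 and 687 gained and 15 and 350 lost; the lowest values came without CT1, when 53 genes were called. DESeq2 called 58 genes between OH and CH and 788 interactions. The cause of these shifts was not tested.

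No called result reversed its direction under an alternative. EGFP, not called, had log2 fold changes of -0.999 without CT1 and 12.66 without CT2, and list medians close to 0, such as those of blood (-0.74 to 0.90), Notch (-0.14 to 0.12) and neural crest genes (-0.13 to 0.38), changed sign. Same-numbered libraries of OT and CT did not deviate together (correlation of deviations -0.155; OT with OH 0.143, CT with CH 0.128, OH with CH -0.0404), so the numbers were not taken to pair the samples; with the replicate block 574 genes were called higher and 304 lower, and no interaction was called (0 genes). With the numbers crossed, a pairing chosen after seeing the data, 702 were called higher and 349 lower. Of the 158 named genes, 158 kept their side of the threshold with DESeq2, 121 with the replicate block, 73 without CT2, 52 without OH1 and 10 without CT1. The search of promoters for motifs was not run.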

Other observations

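By gene symbol, some gene families held several called genes. The families were drawn up after the values were seen, and the shares of all genes tested were 3.89% gained and 2.42% lost. Of 39 tested cytochrome P450 genes 6 were gained and 1 lost; besides the retinoid enzymes, the gained genes were CYP17A1, of steroid synthesis, CYP2D6, CYP2J19, which makes red ketocarotenoids in bird cone oil droplets, and CYP2W1. Of 17 tested WNT ligands 4 were gained (WNT2, WNT4, WNT9B and WNT16) and 2 lost (WNT3A and WNT5A). Of 14 tested gap junction genes 2 were gained, GJB2 and GJB6, and 0 lost. Among 36 forkhead genes 6 were gained and 2 lost, FOXB1 and FOXF1. Of 178 tested TMEM genes 7 were gained and 6 lost, shares close to those of all genes tested.

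Genes with only a LOC identifier made up 52 of the 646 gained and 29 of the 402 lost genes, and long noncoding RNAs 20 and 15. Among all 16611 genes tested, 3328 had only a LOC identifier and 1402 were long noncoding RNAs, so both classes were rarer among the called genes. Z-linked genes were 37 of the gained (5.73%), 9 of the lost and 13 of the 66 increases set aside (19.7%), against 4.68% of all genes tested.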
